A study of Mus musculus with 6 samples.

Results

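The genes described here are 39 mouse genes of the ATF4 and unfolded protein responses, chosen by name and sorted by role into 12 of amino acid synthesis, 7 of amino acid transport, 14 of the ATF4-CHOP arm and 6 of the endoplasmic reticulum (ER) chaperone arm. The list was chosen with earlier results of these data known. A value was present for 38 of the 39 genes, out of 19937 tested in all, and Pycr1, a proline synthesis enzyme, was not analysed here. Each measured member was read from the 1 probe set that names it alone. Transcript levels were read on 6 one-colour Affymetrix arrays hybridised with RNA of mouse embryonic stem cells. The medium held serum and the cytokine LIF, which keeps the cells undifferentiated, with added non-essential amino acids, L-glutamine and β-mercaptoethanol in both groups. All cells were of a V6.5-derived line with a biotin-acceptor and 3xFLAG tag knocked into Ctnnb1, the β-catenin gene, and with the biotin ligase BirA, kept on feeder cells from DR4 mice. For 24 h, 3 samples received CHIR99021, which inhibits the kinase GSK3, at 3 µM, and 3 received XAV939, a tankyrase inhibitor that lowers β-catenin, at 3 µM per the sample labels or 1 µM per the treatment protocol. No untreated array was analysed here, so higher and lower always mean CHIR99021 relative to XAV939 and no difference can be credited to 1 compound alone. The labels name replicates without saying whether they were separate cultures of the line, and p-values measure only the spread between these arrays.

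ATF4 is a transcription factor made when translation initiation is slowed through phosphorylation of eIF2, by the kinase GCN2 when amino acids are short and by the kinase PERK when unfolded proteins build up in the ER. It binds, often with C/EBP partners, C/EBP-ATF response elements and raises genes for amino acid synthesis and uptake and, with CHOP (encoded by Ddit3), genes of feedback and cell death. The other ER arms act through XBP1 and ATF6, which bind ER stress response elements of chaperone genes. Much of the control of ATF4 is at translation, so the level of the Atf4 transcript is not the amount of its protein.

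On the series as a whole, array medians lay between 5.67 and 5.71. XAV939 replicate 1 stood apart from the other XAV939 arrays on the second principal component (17.5% of the variance), and CHIR99021 replicate 3 to a lesser extent. Axin2, a β-catenin target that checks the treatments, was 1.91 ± 0.09 (SE) higher with CHIR99021. All 10 stem cell markers were brighter than the median probe set, and 3 were higher and 4 lower, a share called of 70% against 9.65% of all genes. Esrrb was higher by 0.60 and Nanog by 0.49, and Utf1 differed by -0.67 and Tdgf1 by -0.63. Of 14 fibroblast markers of the feeder cells, 5 were higher, none was lower and 9 did not pass. Col1a1 was higher by 1.05, Tagln by 0.67, Pdgfrb by 0.59, Col1a2 by 0.40 and Acta2 by 0.35. Against 9.65% of all genes, the share called was 35.7% of these 14 markers. Their mean level was 6.43 to 6.45 with CHIR99021 and 6.18 to 6.26 with XAV939, and 9 of the 14, the 5 higher ones included, were brighter than the median probe set. The 5 dimmer ones were Lum, Dcn, Postn, Fap and Loxl1. Col3a1, Col6a1, Thy1 and Twist1 were brighter than the median probe set but did not pass. They differed by 0.0965, 0.0055, -0.079 and -0.19, and every CHIR99021 value of Twist1 lay below every XAV939 value. The part of the feeder cells in the members' differences was not tested, and in bulk RNA fewer cells of a type and less RNA per cell cannot be told apart.

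Members that changed were mostly lower with CHIR99021, with a few exceptions. Of the 38 measured members, 13 were lower, 2 were higher and 23 did not pass limma at an adjusted p of 0.05, a share of 39.5% called. Over all genes tested the share called was 9.65%, with 4.34% lower and 5.31% higher, against 34.2% and 5.26% of the members. All 38 measured members were brighter than the median probe set, as were 11283 of the 19937 genes tested. With genes below the 25th percentile of level left out, 12% of the genes tested were called, and 15 members. The lower members were led by the cationic amino acid transporter gene Slc7a3 (1.68-fold) and by Chac1 (1.63-fold), whose enzyme degrades glutathione. The higher members were Asns, encoding asparagine synthetase (1.495-fold), and the stress-induced transcription factor gene Atf3 (1.16-fold). Values of the treatments did not overlap in 20 members, 52.6% of those measured (16 below and 4 above), against 25.1% of all genes (11% and 14.1%). No member differed by 2-fold, and the median difference of the members was -0.08 in log2 units, against 0.0066 for all genes. The count of lower members fell to 7 without CHIR99021 replicate 2 and to 8 without XAV939 replicate 2 or 3. In these 3 fits the count of all changed members fell from 15 to 8, 9 and 9. Of all genes, the share called fell from 9.65% to 6.29%, 7.32% and 7.22%. The count of higher members was 1 when any CHIR99021 array, or XAV939 replicate 2 or 3, was omitted. XAV939 replicate 1 and CHIR99021 replicate 3 were the arrays that stood apart. Without the former, and without both, 13 members were lower and 2 higher, the same counts as with all arrays. Of all genes, 11.3% and 11.7% were called in these fits. The members called were not all the same. Slc1a4 passed in both cases, Xbp1 did not pass in the first and Mthfd2 did not pass in the second.

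**Figure D1:**
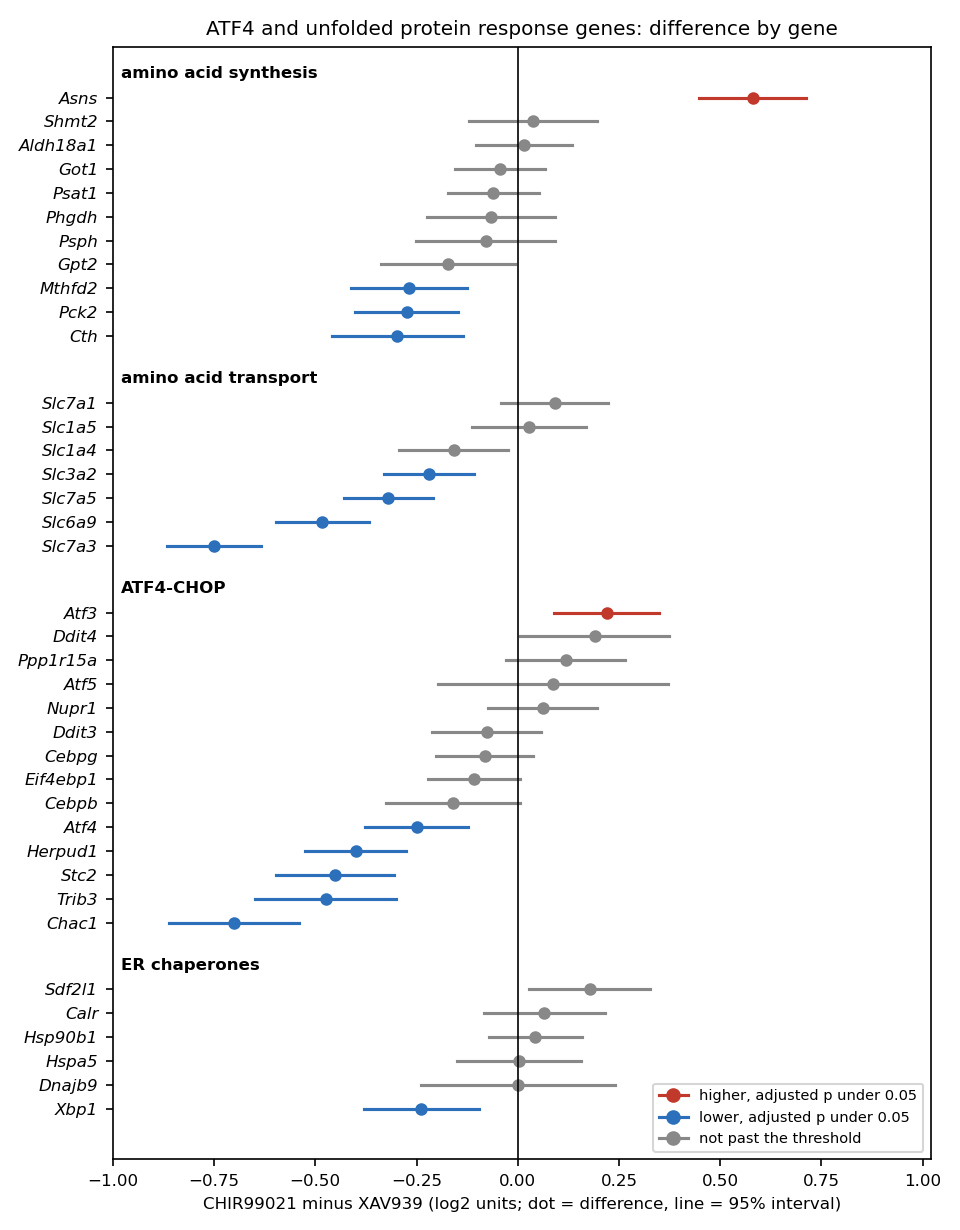
Difference between CHIR99021 and XAV939 for the 38 measured members, in log2 units on the horizontal axis, with genes by role on the vertical axis; dots are limma differences over 3 arrays per treatment and lines their 95% intervals. The 13 lower members reach -0.75 (Slc7a3) and the 2 higher members are Asns at 0.58 and Atf3 at 0.22.

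Promoter sequences near the start show which of the members searched hold the core letters of the elements named above. RefSeq windows of 300 bases, from 250 before to 50 after each annotated start (GRCm38.p6), were present for 34 of the 39 members, 4 of which had more than 1 window, and were searched on both strands for 4 motifs chosen with the values known. The core of the C/EBP-ATF response element (CARE), TGATGNAA, was in 10 of the 39 windows of these members, each of a different gene, and in 3.97% of all 32851 RefSeq windows. The ER stress response element (ERSE), CCAAT and CCACG with 9 bases between them, was in 3 of the 39 windows, all of the ER chaperone group, and in 0.119% of all windows. Its shorter variant ERSE-II, ATTGG and CCACG with 1 base between them, was in 1 window, that of Herpud1, and in 0.0365% of all windows. A core bound by the TCF/LEF partners of β-catenin, CTTTGAT, was in 1 window, of Slc7a1, and in 3.73% of all windows. No match in a member overlapped a match of another motif. A match describes letters only and was not tested for binding. A window without a match does not show that the gene lacks the element, since only 300 bases were searched for exact letters. Slc7a3, Slc7a5 and Cth, which were lower, and Slc1a5 and Eif4ebp1, which did not pass, had no window and were not searched.

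The stretches below lie upstream of the start, are written 5′ to 3′ in the direction of the gene and have the fixed letters of the motif in capitals. The CARE matches of Asns and Atf3, the higher members, and of Chac1, Herpud1 and Pck2, which were lower, are shown with that of Got1, which did not pass, because the same core occurs in all of these groups. In the other 5 the core of the Asns match is read on the opposite strand, as its reverse complement.
Asns (GRCm38.p6 chr6:7693210-7693262, minus strand): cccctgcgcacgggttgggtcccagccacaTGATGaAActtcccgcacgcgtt
Atf3 (GRCm38.p6 chr1:191183406-191183473, minus strand): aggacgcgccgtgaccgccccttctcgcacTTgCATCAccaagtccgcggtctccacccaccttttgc
Chac1 (GRCm38.p6 chr2:119351019-119351086, plus strand): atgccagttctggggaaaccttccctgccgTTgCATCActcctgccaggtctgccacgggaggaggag
Herpud1 (GRCm38.p6 chr8:94386287-94386354, plus strand): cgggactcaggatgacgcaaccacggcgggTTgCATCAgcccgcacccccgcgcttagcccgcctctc
Pck2 (GRCm38.p6 chr14:55540133-55540200, plus strand): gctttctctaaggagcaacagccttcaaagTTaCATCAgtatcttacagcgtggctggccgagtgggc
Got1 (GRCm38.p6 chr19:43524670-43524737, minus strand): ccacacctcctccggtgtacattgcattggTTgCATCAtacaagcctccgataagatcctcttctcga
The Asns match began 23 bases upstream of the start, that of Chac1 193 bases upstream, and those of Atf3, Herpud1, Pck2 and Got1 between 102 and 112 bases upstream. The remaining CARE matches were upstream in Nupr1 and Pycr1, across the start in Slc1a4 and after it in Trib3.

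The ERSE matches of the chaperone genes Hspa5, Hsp90b1 and Calr are shown. The levels of these genes, given further on, did not pass the test. Neither did those of Dnajb9 and Sdf2l1, which held no ERSE match. The ERSE-II match is shown because Herpud1, which was lower, holds it together with a CARE core.
Hspa5 (GRCm38.p6 chr2:34771995-34772073, plus strand): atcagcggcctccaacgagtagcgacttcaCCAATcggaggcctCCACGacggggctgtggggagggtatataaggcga
Hsp90b1 (GRCm38.p6 chr10:86705503-86705686, minus strand): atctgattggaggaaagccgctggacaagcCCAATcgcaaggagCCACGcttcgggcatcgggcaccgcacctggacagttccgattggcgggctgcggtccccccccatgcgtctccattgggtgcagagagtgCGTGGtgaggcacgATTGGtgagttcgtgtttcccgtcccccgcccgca
Calr (GRCm38.p6 chr8:84847045-84847123, minus strand): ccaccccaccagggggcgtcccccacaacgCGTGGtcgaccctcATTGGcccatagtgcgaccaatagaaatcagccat
Herpud1 (GRCm38.p6 chr8:94386347-94386417, plus strand): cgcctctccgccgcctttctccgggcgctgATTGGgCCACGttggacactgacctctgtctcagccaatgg
Hsp90b1 held 2 matches, 1 on each strand, and in Calr the element lay on the reverse strand. By call, a CARE core was in 4 of the 10 lower members with a window, in both of the higher members and in 3 of the 21 that did not pass. An ERSE was in 3 of the 21 that did not pass and in none of the lower or higher members.

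**Figure D2:**
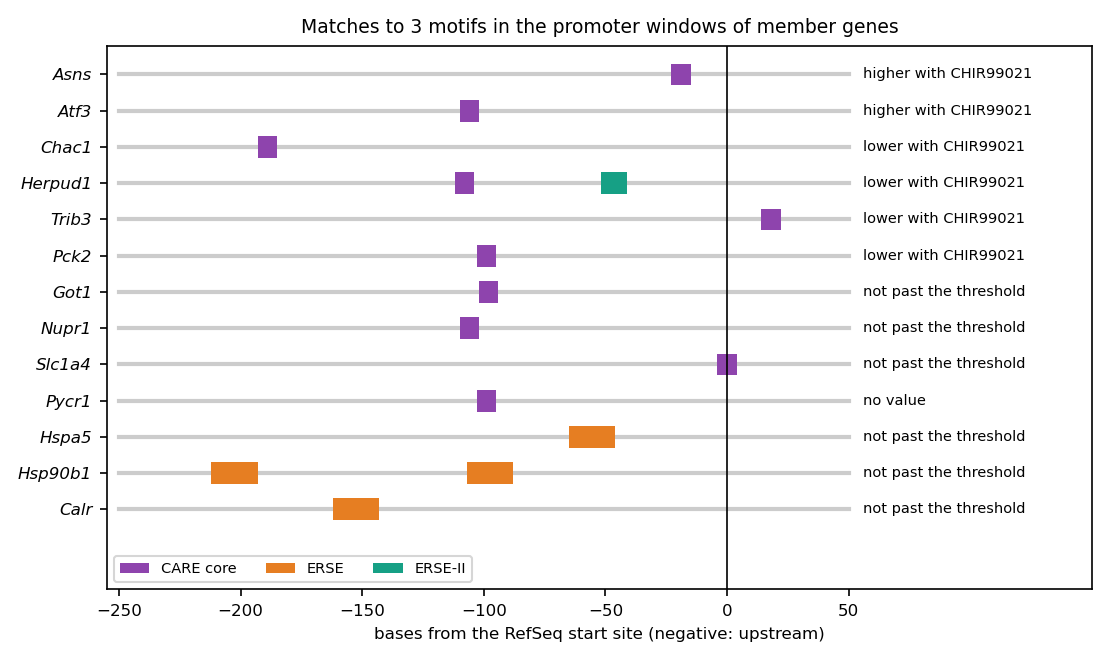
Positions of CARE, ERSE and ERSE-II matches in the promoter windows of the 13 members that held one, with bases from the RefSeq start on the horizontal axis, 1 gene per row and its call at the right. CARE cores stand in lower, higher and uncalled members, and the 3 genes with an ERSE did not pass.

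Amino acid transporter genes had the largest share of lower members, with 4 of 7 lower, none higher and 3 not past the threshold. The share called was 57.1%, against 9.65% of all genes. The median difference of the 7 was -0.22. Slc7a3, encoding a transporter of arginine and lysine, had log2 levels of 9.96, 9.98 and 9.93 with CHIR99021 and of 10.65, 10.72 and 10.75 with XAV939. The groups lay far apart and each was narrow, with SDs of 0.027 and 0.050 (n = 3). The difference was -0.75 ± 0.05 (SE), with an adjusted p of 1.04e-05 in limma, and the gene ranked 86 of all 19937 by p.

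Slc6a9, encoding a glycine transporter, stood at 6.60, 6.67 and 6.68 with CHIR99021 and at 7.11, 7.13 and 7.16 with XAV939. Its difference was -0.48 ± 0.05 (SE; 1.398-fold lower, limma adjusted p = 1.70e-04), again with no overlap. Slc7a5 and Slc3a2 encode the light and heavy chain of a heterodimeric exchanger of large neutral amino acids, and both were lower. Slc7a5 read 10.69, 10.68 and 10.66 against 11.03, 10.995 and 10.97, a difference of -0.32 ± 0.05 (SE; limma adjusted p = 0.00190). Slc3a2 read 11.45, 11.50 and 11.52 against 11.72, 11.71 and 11.71, a difference of -0.22 ± 0.05 (SE; limma adjusted p = 0.0191). Slc3a2 no longer passed when CHIR99021 replicate 1 or 2, or XAV939 replicate 2 or 3, was omitted (0.0594 to 0.0864), and the calls of the other 3 lower transporter genes were kept with any array left out.

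The other transporter genes did not pass. Slc1a4, for a carrier of small neutral amino acids, had every CHIR99021 value (7.67 to 7.69) below every XAV939 value (7.72 to 7.90), with a difference of -0.16 and an adjusted p of 0.158. Without XAV939 replicate 1, its lowest XAV939 array, the difference was -0.22 and passed, and over all alternatives its limma adjusted p ranged from 0.0225 to 0.407. Slc1a5, a glutamine carrier gene, differed by 0.028 (95% interval -0.11 to 0.17), and its sign turned without CHIR99021 replicate 3 (-0.034). Slc7a1, which encodes another carrier of cationic amino acids and so resembles Slc7a3 in substrate, differed by 0.091 (-0.041 to 0.22), with no overlap. The intervals of Slc1a5 and Slc7a1 allow small changes in either direction, and that of Slc1a4 ran from -0.29 to -0.024.

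In the ATF4-CHOP arm 5 of 14 members were lower, 1 was higher and 8 did not pass. The share called was 42.9%, against 9.65% of all genes. Chac1 had log2 levels of 7.58, 7.44 and 7.38 with CHIR99021 and of 8.21, 8.05 and 8.24 with XAV939. Every CHIR99021 array lay well below every XAV939 array, and the difference was -0.70 ± 0.07 (SE; limma adjusted p = 1.34e-04). Trib3, a pseudokinase that restrains ATF4 and CHOP, read 7.97, 7.95 and 8.18 against 8.62, 8.50 and 8.40. The difference of -0.47 ± 0.08 (SE; 1.39-fold lower) had an adjusted p of 0.00289 in limma. Stc2, a secreted glycoprotein gene induced by ER stress, read 6.80, 6.93 and 7.01 against 7.38, 7.30 and 7.42, a difference of -0.45 ± 0.07 (SE; limma adjusted p = 0.00130).

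Herpud1, whose product sits in the ER membrane and takes part in ER-associated degradation, read 8.28, 8.38 and 8.28 with CHIR99021 against 8.69, 8.77 and 8.68 with XAV939. It was 1.32-fold lower (-0.40 ± 0.06, SE; limma adjusted p = 0.00105). Chac1, Trib3, Stc2 and Herpud1 kept their call with any array left out. Atf4 itself read 9.32, 9.26 and 9.31 against 9.46, 9.62 and 9.55, which did not overlap. Its difference was -0.25 ± 0.06 (SE; 1.19-fold lower, limma adjusted p = 0.0199). It missed the threshold when any CHIR99021 array, or XAV939 replicate 2 or 3, was omitted (0.0523 to 0.0962).

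Atf3 went the other way, with 7.002, 7.09 and 7.10 under CHIR99021 against 6.92, 6.77 and 6.84 under XAV939. The groups lay close without overlapping, and the difference of 0.22 ± 0.06 (SE; limma adjusted p = 0.0401) missed the threshold when any CHIR99021 array, or XAV939 replicate 2 or 3, was omitted (0.0579 to 0.154). Ddit3, which encodes CHOP, the factor the arm is named for, overlapped between treatments, with 6.26, 6.32 and 6.13 against 6.33, 6.34 and 6.27. Its difference of -0.077 had an interval of -0.21 to 0.059, and its adjusted p was 0.579.

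Of the remaining ATF4-CHOP members, the transcription factor genes Cebpb and Cebpg, which encode partners of ATF4, differed by -0.16 and -0.082 (limma adjusted p = 0.263 and 0.476). Every CHIR99021 value of Cebpb lay below every XAV939 value, and the values of Cebpg overlapped. Eif4ebp1, a repressor of cap-dependent translation, had all CHIR99021 values below all XAV939 values and differed by -0.11 (0.268). Ddit4, an inhibitor of mTORC1, differed by 0.19 (interval 0.0054 to 0.37, adjusted p = 0.227). Ppp1r15a, the phosphatase subunit that reverses eIF2 phosphorylation, differed by 0.12 (0.381) with no overlap, and Nupr1, a small stress-induced chromatin protein gene, by 0.061 (0.676). Atf5, a relative of Atf4, had the widest spread of the members, with 7.38 in XAV939 replicate 1 against 6.89 in both other XAV939 arrays. Its difference was 0.088 (-0.20 to 0.37), or 0.25 without that array and -0.0036 without CHIR99021 replicate 3.

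**Figure D3:**
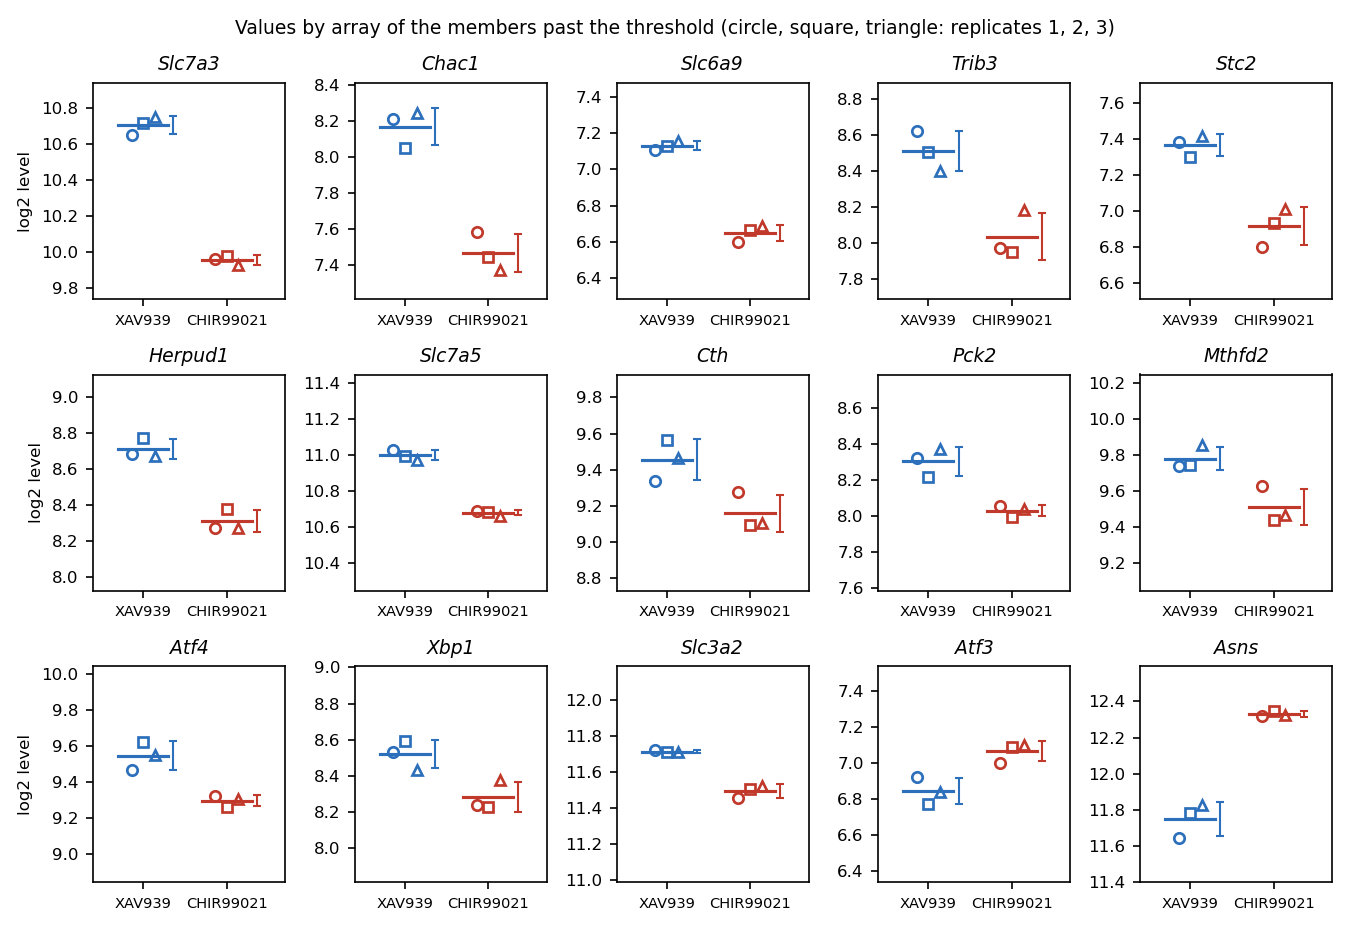
Log2 level (vertical axis, 1.2 units tall in every panel) in each XAV939 and CHIR99021 array for the 15 members past the threshold; circles, squares and triangles are replicates 1, 2 and 3, horizontal lines the mean and bars the SD (n = 3). The treatments do not overlap in any of the 15 panels, and Atf3 and Asns are the panels where CHIR99021 is higher.

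Amino acid synthesis genes were split, in that 1 of 11 was higher, 3 were lower and 7 missed the threshold. The share called was 36.4%, against 9.65% of all genes. Asns, which makes asparagine from aspartate and glutamine, had log2 levels of 12.32, 12.35 and 12.33 with CHIR99021 and of 11.64, 11.78 and 11.83 with XAV939. Every CHIR99021 array was far above the highest XAV939 array. The difference was 0.58 ± 0.06 (SE; limma adjusted p = 1.28e-04), the largest upward difference among the 38 members, and it was between 0.53 and 0.62 with any array left out. Asns and Chac1, both well-known ATF4 targets, thus changed in opposite directions on the same arrays.

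The 3 lower synthesis genes differed less and their calls depended on single arrays. Cth, whose enzyme makes cysteine from cystathionine, read 9.27, 9.09 and 9.11 against 9.34, 9.56 and 9.46 (-0.30 ± 0.07, SE; limma adjusted p = 0.0278). Pck2, a mitochondrial enzyme that makes phosphoenolpyruvate, read 8.06, 7.997 and 8.04 against 8.32, 8.22 and 8.37 (-0.27 ± 0.06, SE; limma adjusted p = 0.0122). Mthfd2, a mitochondrial folate enzyme, read 9.63, 9.44 and 9.47 against 9.74, 9.74 and 9.85 (-0.27 ± 0.06, SE; limma adjusted p = 0.0255). None of these overlapped between treatments. Omitting replicate 2 or 3 of either treatment ended the calls of Cth (0.0868 to 0.124) and Mthfd2 (0.0531 to 0.122), and omitting CHIR99021 replicate 2 or XAV939 replicate 3 ended that of Pck2 (0.0556 to 0.0659). The group then held 1 call in the absence of CHIR99021 replicate 2 or of XAV939 replicate 3, and 2 calls in the absence of CHIR99021 replicate 3 or of XAV939 replicate 2.

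The serine pathway did not follow Asns. Phgdh, Psat1 and Psph, the successive enzymes that make serine from a glycolytic intermediate, differed by -0.065, -0.060 and -0.079, each with overlapping values. Their 95% intervals ran from -0.22 to 0.093, from -0.17 to 0.053 and from -0.25 to 0.093. Shmt2, the mitochondrial enzyme that turns serine into glycine, differed by 0.037 (-0.12 to 0.20), with -0.025 without CHIR99021 replicate 3 and -0.0054 without XAV939 replicate 3. Aldh18a1, of proline synthesis, differed by 0.016 (-0.10 to 0.14; -0.0051 without CHIR99021 replicate 3 and -0.011 without XAV939 replicate 1). The transaminase genes Got1 and Gpt2 differed by -0.043 and -0.17 (limma adjusted p = 0.737 and 0.220), and the interval of Gpt2 ran from -0.34 to -0.0069.

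In the ER chaperone group 1 of 6 members, Xbp1, was lower and 5 did not pass. That made 16.7% called in this small group, against 9.65% of all genes. Xbp1, the transcription factor gene whose transcript is spliced on ER stress, read 8.24, 8.23 and 8.38 with CHIR99021 against 8.53, 8.59 and 8.43 with XAV939. The table holds 1 value for the gene and does not separate its spliced form. The difference was -0.24 ± 0.06 (SE; 1.18-fold lower, limma adjusted p = 0.0413), and omitting replicate 1 or 2 of either treatment ended the call (0.0700 to 0.169), which left 0 of 6 members called.

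Hspa5, the main chaperone of the ER lumen and the usual marker of ER stress, read 11.47, 11.48 and 11.32 against 11.31, 11.44 and 11.51. The arrays of the treatments were intermixed, and the difference was 0.0031 with an interval of -0.15 to 0.16. Its sign turned in several alternatives, among them -0.052 without XAV939 replicate 1. Hsp90b1, the ER member of the HSP90 family, differed by 0.044 (-0.072 to 0.16) and Calr, a lectin chaperone, by 0.066 (-0.084 to 0.22). Dnajb9, a co-chaperone of Hspa5, differed by 8e-04 (-0.24 to 0.24; -0.12 without CHIR99021 replicate 3). Sdf2l1, another ER protein gene induced by ER stress, differed by 0.18 (0.028 to 0.33) with a limma adjusted p of 0.155.

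Further genes of the pathway were read in lists chosen, like the members, with earlier results of these data known. These lists are therefore no independent check of the members. Of 12 measured ATF4 targets outside the member list, 5 were lower, none higher and 7 did not pass. The share called was 41.7%, against 9.65% of all genes. Slc38a2, a glutamine and alanine transporter gene, read 10.78, 10.82 and 10.76 with CHIR99021 against 11.27, 11.33 and 11.37 with XAV939, a difference of -0.54 ± 0.05 (SE; limma adjusted p = 9.64e-05). Sesn2, a leucine sensor that restrains mTORC1, differed by -0.35, the mitochondrial folate enzyme gene Mthfd1l by -0.29, the growth arrest gene Gadd45a by -0.29 and the cystine transporter gene Slc7a11 by -0.23 (limma adjusted p = 0.0476). Slc7a11 lay at a low level, the 26.2 percentile of all probe sets, and no longer passed when any CHIR99021 array, or XAV939 replicate 2 or 3, was omitted (0.0804 to 0.186), or when each array was centred.

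Among 11 measured sensors and eIF2 pathway genes, upstream of ATF4 and of the chaperones, 1 was lower, none higher and 10 did not pass. The share called, 9.09%, was near the 9.65% of all genes. Values did not overlap in 5 of the 11, all lower (45.5% against 25.1% of all genes), and 3, also all lower, had an unadjusted p under 0.05, which 20.6% of all genes had. The gene that passed was Impact, an inhibitor of GCN2 activation (-0.29 ± 0.05, SE; limma adjusted p = 0.00631). The other genes with an unadjusted p under 0.05 were Atf6, an ER stress sensor (-0.23, limma adjusted p = 0.0854), and Eif2ak3, which encodes PERK (-0.20, limma adjusted p = 0.128). Cytosolic tRNA synthetases of the ATF4 programme were lower in 1 of 11 cases and higher in none, again 9.09% called. Non-overlapping values were found in 4 of the 11, all lower (36.4% against 25.1% of all genes). The gene that passed was Wars at -0.18 (adjusted p = 0.0458, 0.0893 to 0.165 when any CHIR99021 array or XAV939 replicate 2 or 3 was omitted, and also lost by centring). Of 7 synthetases outside that programme, 1, Qars, was higher (0.31 ± 0.06, SE, limma adjusted p = 0.00820). Among these 7 the share called was 14.3%, against 9.65% of all genes.

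None of 18 further ER chaperone and degradation genes passed in limma, and 9.65% of all genes did. An unadjusted p under 0.05 was found for 4, of which 3 were higher, and for 20.6% of all genes. The smallest p values were those of Derl1, part of the channel of ER-associated degradation (0.17, adjusted p = 0.0655), and P4hb, a protein disulphide isomerase (0.14, adjusted p = 0.170). The median difference of the 18 genes was 0.0090.

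**Figure D4:**
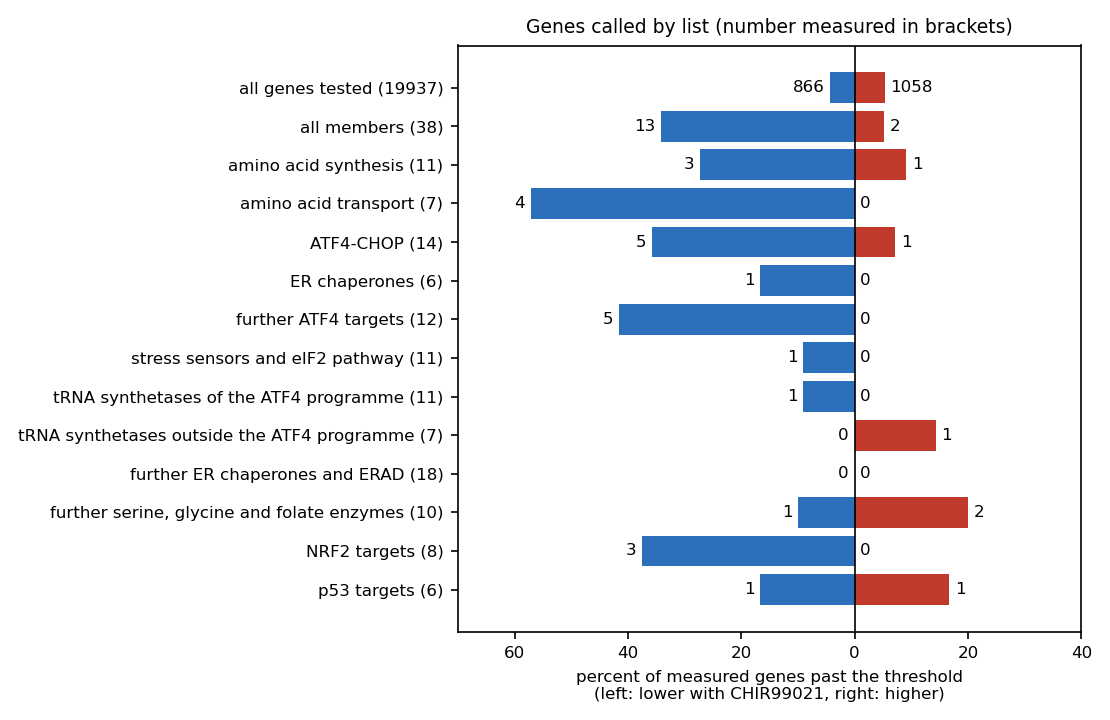
Percent of measured genes past an adjusted p of 0.05 (horizontal axis) in each list, lower with CHIR99021 to the left and higher to the right, with the number of genes called beside each bar and the number measured in brackets. Lower calls make up 57.1% of the amino acid transport members and 41.7% of the further ATF4 targets, and no call falls among the 18 further ER chaperone and degradation genes.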

How the data were processed

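Total RNA of 6 samples was measured on 6 arrays, 3 per treatment, grouped by their titles. The authors deposited log2 values for each probe set, computed with RMA per the submitters' processing notes, which name no version. RMA corrects background, equalises the arrays by quantiles and summarises probes, which compresses differences of weak genes. The table held 34760 probe sets, of which 21640 named 1 gene in the platform annotation, 1321 several and 11799 none here. Each gene was represented by its brightest single-gene probe set. The 4 list symbols that were older names were updated through RefSeq synonyms.

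CHIR99021 minus XAV939 was fitted with limma 3.58.1 in R 4.3.3 (lmFit, eBayes, 4 residual and 6.15 prior degrees of freedom), with Benjamini-Hochberg adjustment over all 19937 genes at 0.05 and no filter. All adjusted p-values are from this fit unless an alternative is named. With 3 against 3 arrays the smallest exact permutation p is 0.1, so that test was not used. The number of arrays limits the precision. Members, lists and motifs were chosen with earlier results of these data known. Named were all members, Axin2 and, from each other list described, up to 4 called genes by rising p. Where none was called, the first 2 by p were named. Atf6, Eif2ak3, Slc7a11, Col1a2, Lum, Dcn, Postn, Fap, Loxl1, Col3a1, Col6a1, Thy1 and Twist1 were named after their values were seen. Alternatives were centring, renewed quantile normalisation, a level filter, all probe sets, mean of probe sets, a variance trend, array weights, the replicate number as a block, each array left out and a threshold of 0.01. Promoter windows came from RefSeq (GRCm38.p6). Figures were drawn with matplotlib 3.10.9.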

Additional observations from a re-analysis of the deposited data

How the results depend on the processing

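Asns, Slc7a3, Slc7a5, Slc6a9, Trib3, Chac1, Stc2 and Herpud1, 8 of the 15 called members, kept direction and call in the 15 alternatives run per gene and also passed at 0.01. The other 7 (Atf3, Atf4, Cth, Mthfd2, Pck2, Slc3a2 and Xbp1) kept their direction in all 15 and lost the call in at least 1. Some alternatives could not change a member's direction. The level filter, all probe sets, the mean of probe sets, the variance trend and the replicate block left each member's difference as it was. These bear only on the call.

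At a threshold of 0.01 the fit called 1118 genes in place of 1924 (5.61% of all genes). Of the members it called 8 (7 lower, 1 higher), with 1 in amino acid synthesis and 0 in the ER chaperones. With all probe sets tested the members called were also 8 (7 lower, 1 higher, with 1 in synthesis and 0 in ER chaperones), where adjustment runs over more tests. In that fit 3.76% of all 34760 probe sets were called. With a variance trend 1 member was higher. Deviations of same-numbered replicates from their group means had correlations of -0.096, 0.060 and -0.14. The largest correlation, 0.18, was between CHIR99021 replicate 3 and XAV939 replicate 1. With 3 arrays per treatment these values cannot decide whether the numbers pair the arrays. With the replicate block 9 members were called, 8 lower and 1 higher, with 2 in synthesis and 0 in ER chaperones. It called 7.91% of all genes. With 1 array left out the fit called 1254 to 2247 genes (6.29% to 11.3% of all genes), the smallest without CHIR99021 replicate 2. Of the members it called 8 to 15, 7 to 13 of them lower and 1 to 2 higher, with 1 to 4 in synthesis and 0 to 1 in ER chaperones. Leaving out CHIR99021 replicate 3 and XAV939 replicate 1 together was chosen after seeing the data and gave 15 members, with 11.7% of all genes called.

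Among the 23 members that did not pass, 7 changed sign in at least 1 alternative. With array weights Aldh18a1 was at -0.014, Slc1a5 at -0.0090, Hspa5 at -0.0022 and Dnajb9 at -0.10. With arrays centred Dnajb9 was at -8e-04, and with renewed quantile normalisation at -0.0044. Without both CHIR99021 replicate 3 and XAV939 replicate 1, Shmt2 was at -0.011, Aldh18a1 at -0.032, Slc1a5 at -0.038, Nupr1 at -0.0029, Hspa5 at -0.0021 and Dnajb9 at -0.14. With 1 array left out the ranges were -0.025 to 0.10 for Shmt2, -0.011 to 0.042 for Aldh18a1, -0.034 to 0.076 for Slc1a5, -0.0036 to 0.25 for Atf5, -0.052 to 0.054 for Hspa5 and -0.12 to 0.091 for Dnajb9. The cause was not tested.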

Other observations

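Genes of neighbouring stress and metabolic programmes were measured on the same arrays. Of 8 targets of NRF2, the regulator of antioxidant genes, 3 were lower with CHIR99021, none was higher and 5 did not pass. The share called was 37.5%, against 9.65% of all genes. Gclm and Gclc, the subunits of the enzyme that starts glutathione synthesis, differed by -0.49 ± 0.06 and -0.41 ± 0.06 (SE), and Hmox1, heme oxygenase, by -0.49 ± 0.07 (SE). Gclm read 9.63, 9.50 and 9.62 against 10.07, 10.10 and 10.05, with no overlap. The calls of all 3 genes were kept in the 15 alternatives run per gene.

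Enzymes of serine, glycine and folate metabolism outside the member list differed in direction. Of 10, 2 were higher, 1 was lower and 7 missed the threshold, a share called of 30% against 9.65% of all genes. Gcat, a mitochondrial enzyme of threonine breakdown, was higher by 0.45 ± 0.07 (SE) and Cbs, which makes cystathionine from serine and homocysteine, by 0.34 ± 0.06 (SE). Cth, which acts on the product of Cbs, was lower, as described above. Mthfd2l, a mitochondrial folate enzyme gene related to Mthfd2, was lower by -0.26 ± 0.05 (SE; adjusted p = 0.0108 in limma, 0.0530 without XAV939 replicate 2). Among 6 measured p53 targets, Phlda3 was higher (0.47 ± 0.06, SE), Bbc3 was lower (-0.19 ± 0.05, SE) and 4 did not pass. That made 33.3% called, against 9.65% of all genes. The call of Bbc3 was lost with each of the 6 arrays left out in turn (limma adjusted p = 0.0551 to 0.138).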
